A study of Homo sapiens with 6 samples.

Results

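A set of 46 genes of the early secretory pathway were followed in RPMI 8226, an established human multiple myeloma cell line, 1 day after carbon-ion irradiation. They encode the signal recognition particle and its receptor, the Sec61 translocon with its partner complexes, signal peptidase, the COPII and COPI vesicle coats, a cargo receptor pair and the KDEL receptors. The set was chosen by gene function, with earlier results of these data known, so its shares beside those of all genes are descriptions. Each gene was read from the probe sets annotated with that gene symbol alone, taking the brightest where there were several. Of 46 genes, 44 were measured in this way, out of 18417 genes in the whole table, and SEC61G and KDELR2 were not analysed here. All 44 entered the test, which used no filter on dim genes. The controls received 0 Gy and the treated cells 6 Gy of carbon ions, a densely ionising form of radiation. Each dose was measured on 3 biotin-labelled arrays of total RNA, all from this single line. The labels number the arrays 1 to 3 within each dose without saying whether each came from its own culture. The p-values therefore describe only how much these arrays varied, which may be technical. In such bulk RNA, fewer cells of a kind and less RNA per cell cannot be told apart.

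Plasma cells and the myeloma cells that derive from them export large amounts of immunoglobulin, and they carry an enlarged endoplasmic reticulum (ER) to do so. A nascent secreted protein is recognised by the signal recognition particle, docked at its receptor and threaded through the Sec61 channel, after which signal peptidase removes its leader. COPII-coated vesicles then carry it from the ER towards the Golgi, and COPI-coated vesicles bring back escaped ER residents, which KDEL receptors bind by their C-terminal KDEL-type tail.

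The deposited values were read as log2 intensities, so a difference of 1 is a 2-fold change. Arrays had medians between 5.64 and 5.72 and upper quartiles between 7.87 and 7.96. A probe set's brightness depends on its probes as well as on the amount of mRNA, so the levels given here give no order of mRNA amounts between genes. Of the 44 genes, 42 had an unirradiated mean above 7.96, the highest upper quartile of any array, against 29.6% of all genes tested. The exceptions were KDELR3 and SEC61A2. Of 10 plasma cell markers measured, 9 had unirradiated means between 9.95 (TNFRSF17) and 12.99 (JCHAIN), and SLAMF7 stood at 4.63. T cell and monocyte markers, 4 of each, lay between 3.21 (LYZ) and 5.42 (CD3E). The B cell markers MS4A1 and BLK had means of 8.57 and 8.21, while PAX5 and CD22 were dimmer, at 5.66 and 4.97. The epithelial markers EPCAM and KRT18 had means of 10.49 and 9.63. Of the plasma cell markers 1 rose and 3 fell, of 4 B cell markers 1 rose (MS4A1), of 5 stromal and epithelial markers 2 collagen genes rose and EPCAM fell, and of the T cell and monocyte markers 0 of 8 passed the limma test (3 at an unadjusted p under 0.05). Some of these calls did not hold with 1 array left out. That of COL1A1 ended in 6 of 6 such fits (limma adjusted p 0.0576 to 0.113) and that of COL3A1 in 5 (up to 0.0845). The fall of the plasma cell marker XBP1 also lost its call in 5 (limma adjusted p up to 0.117). The call of EPCAM ended without unirradiated replicate 2 or 3 (up to 0.0541) and that of CD38 without unirradiated replicate 2 (0.055). COL1A1 and COL3A1 had unirradiated means of 6.46 and 5.26. The part of these markers in the differences described here was not tested.

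In irradiated cells, KDELR3 mRNA was 2.63-fold higher and the mRNAs of 4 of the 10 COPII genes measured, SEC24A, SEC24B, SEC24D and SEC23B, were 1.20-fold to 1.34-fold higher, as was that of the translocon subunit SEC61B, 1.18-fold. No other gene of the set passed the test. Of 44 genes, 6 were thus called higher and 0 lower, at a Benjamini-Hochberg adjusted p under 0.05 in limma, which is 13.6% of the set. Over all 18417 genes, 14.5% were called, 6.35% higher and 8.18% lower, so the share called was near that of all genes while every call in the set was in the higher direction. At an unadjusted p under 0.05, 2 genes of the set were lower and 12 higher, against 2571 (14%) and 2911 (15.8%) of all 18417 genes. The median log2 difference of the 44 genes was 0.11, and 0.10 without KDELR3, beside 0.04 for all genes. A difference above 0 was seen in 32 of 44 genes (72.7%), against 59.8% of all genes. The irradiated arrays lay wholly above the unirradiated arrays for 20 genes and wholly below them for 2. That is 50.0% of the set against a background of 34.7% of all genes (19.0% above and 15.7% below). Among 90 other genes of the pathway, described further below, the share was 47.8% (29 genes above and 14 below), so it was not particular to this set.

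**Figure D1:**
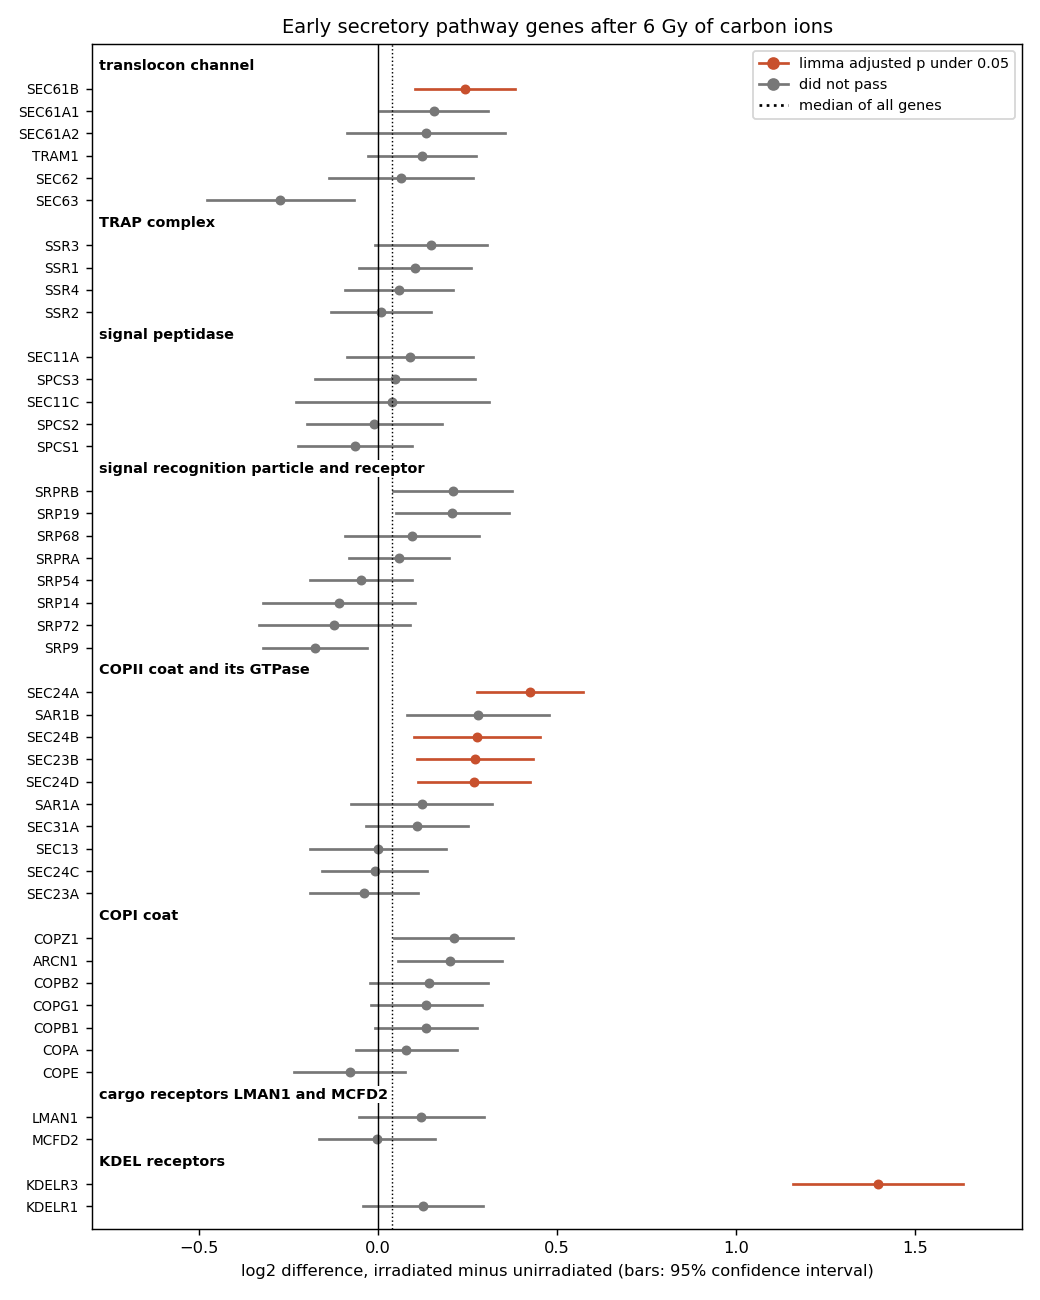
Log2 difference between irradiated and unirradiated cells for the 44 genes, ordered within each role, with 95% confidence intervals from limma (3 arrays against 3). Red marks the 6 genes with an adjusted p under 0.05; KDELR3, at 1.40, lies far to the right of all others, which run from -0.27 to 0.42.

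For 4 of the 6 calls, all or nearly all 6 arrays were needed to pass the threshold. KDELR3 and SEC24A were called under each of the 14 alternative settings. SEC61B and SEC24D lost their call when any 1 of the 6 arrays was left out (adjusted p from 0.0578 to 0.0851 and from 0.0502 to 0.0977). SEC23B and SEC24B lost it without any 1 array except irradiated replicate 3 (adjusted p up to 0.106 and 0.141). Over all alternatives the log2 differences themselves stayed between 0.231 and 0.254 for SEC61B, 0.23 and 0.295 for SEC24D, 0.217 and 0.301 for SEC23B and 0.224 and 0.33 for SEC24B. With 1 array fewer, the number of calls over all genes also went down, from 2676 to between 1471 and 2184. Irradiated replicate 3 was the array farthest from its group's median for 23 of the 44 genes, against 8 and 13 for irradiated replicates 1 and 2. Its median absolute distance from the mean of the other irradiated arrays was 0.0946 over these genes and 0.102 over all genes. Without it, 4 genes of the set were higher and SEC63 was lower (adjusted p 0.0326), and the median difference was 0.07.

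The signal recognition particle binds the leader of a nascent chain and pauses its synthesis. None of its 6 measured protein genes or the 2 receptor genes passed the test, with a median difference of 0.00 and a range from -0.18 to 0.21. SRP54, encoding the GTPase subunit that binds the signal sequence, read 8.95, 8.94 and 8.97 on the unirradiated arrays and 8.90, 8.86 and 8.95 on the irradiated arrays. These values overlapped, and the 95% confidence interval of the difference ran from -0.19 to 0.10. SRPRA, encoding the receptor's alpha subunit, read 11.22, 11.27 and 11.25 without irradiation and 11.29, 11.31 and 11.32 with it. Its groups did not overlap, but the difference was only 0.06 and the adjusted p 0.576. SRPRB, encoding the membrane-anchored beta subunit, differed by 0.21 (limma adjusted p 0.0941), and SRP19, needed to assemble the particle, also by 0.21 (0.0824). SRP9 and SRP14 encode the subunits that bind the Alu end of the particle's RNA. SRP9 read 11.24, 11.31 and 11.22 on the unirradiated arrays and 11.07, 11.12 and 11.05 on the irradiated arrays. All 3 irradiated values were lower, but the difference of -0.18 did not pass (limma adjusted p 0.103). SRP14 differed by -0.11 (0.471). A second probe set of SRP9 also gave -0.18. RefSeq lists the pseudogene SRP9P1, and signal from such near-identical copies cannot be told apart from that of SRP9. SRP72 and SRP68, which bind each other on the particle, differed by -0.12 and 0.09.

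Sec61 forms the channel through which chains enter the ER, and SEC62, SEC63 and TRAM1 assist it. SEC61B, encoding the beta subunit, read 11.51, 11.52 and 11.47 on the unirradiated arrays and 11.76, 11.72 and 11.75 on the irradiated arrays. The groups were well apart and the spread within each was narrow. SEC61B rose by 0.24 ± 0.06 (SE, n = 3 per group), or 1.18-fold, with a limma adjusted p of 0.03. SEC61A1, encoding the pore-forming alpha subunit, differed by 0.16 with an adjusted p of 0.157. Its paralogue SEC61A2 read 7.15, 7.41 and 7.04 without irradiation and 7.26, 7.42 and 7.32 with it. That spread covered the difference of 0.13 (limma adjusted p 0.397). SEC63, which recruits the luminal chaperone BiP to the channel, was the exception in sign and read 10.66, 10.79 and 10.71 in unirradiated cells and 10.47, 10.26 and 10.61 in irradiated cells. All 3 irradiated values were lower, and irradiated replicate 2 was the lowest. The difference of -0.27 ± 0.09 (SE) did not pass in limma (adjusted p 0.0776), and over the 14 alternative settings its adjusted p ran from 0.0227 to 0.213. SEC62, the partner of SEC63, differed by 0.06 and TRAM1, which contacts the emerging signal sequence, by 0.12.

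The TRAP complex sits beside the channel and aids the entry of some clients, and signal peptidase cleaves their leader. None of the 4 TRAP genes passed, with differences from 0.01 (SSR2) to 0.15 (SSR3). SSR2, the beta subunit, read 12.90, 12.92 and 12.90 on the unirradiated arrays and 12.93, 12.92 and 12.89 on the irradiated arrays. It had the narrowest spread of the set between unirradiated arrays (SD 0.0097), and the confidence interval of its difference ran from -0.13 to 0.15. SSR4, the delta subunit, read 8.89, 8.81 and 8.93 without irradiation and 8.92, 8.98 and 8.90 with it, which overlapped. SSR1, the alpha subunit, differed by 0.10.

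None of the 5 signal peptidase genes passed either, and in none of them did the groups separate; their median difference was 0.04. SPCS1, a small non-catalytic subunit, read 11.87, 11.80 and 11.80 in unirradiated cells and 11.72, 11.86 and 11.69 in irradiated cells. SEC11A, a catalytic subunit, read 8.44, 8.53 and 8.33, then 8.44, 8.50 and 8.62 after irradiation. Its values overlapped, with a difference of 0.09 and a confidence interval from -0.09 to 0.26. The other catalytic subunit, SEC11C, varied most within the irradiated group (SD 0.24), with irradiated replicate 3 at 11.05 beside 10.62 and 10.66. The accessory subunit SPCS3 showed the same pattern, with irradiated replicate 3 at 10.10 beside 9.72 and 9.75. SPCS2 was low on that array instead, at 11.51 beside 11.72 and 11.77.

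COPII coats form when SAR1 loads onto the ER membrane and recruits SEC23 and SEC24, the inner layer that holds cargo, and then SEC13 and SEC31, the outer cage. Of the 10 measured genes, 4 rose, 0 fell and 6 did not pass, which is 40.0% against the background of 6.35% of all genes higher. Their median difference was 0.19. All 4 that rose encode inner-layer proteins, but of the genes measured only SEC13 and SEC31A encode the outer cage. With 1 array left out, 1 to 3 COPII genes were called higher. SEC24A encodes a cargo-binding subunit; it read 9.55, 9.59 and 9.53 on the unirradiated arrays and 9.92, 10.02 and 10.00 on the irradiated arrays. The lowest irradiated value lay above the highest unirradiated value by far more than the spread within either group. SEC24A rose by 0.42 ± 0.07 (SE), or 1.34-fold with a 95% confidence interval from 1.21 to 1.49, and its limma adjusted p was 0.00292. It stood at rank 334 of all 18417 genes by size of increase.

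SEC24B, its closest paralogue, read 8.73, 8.89 and 8.78 without irradiation and 9.08, 9.18 and 8.97 with it. It rose by 0.28 ± 0.08 (SE), with a limma adjusted p of 0.0444. Irradiated replicate 3, at 8.97, was only slightly above unirradiated replicate 2, at 8.89. SEC24D, of the other SEC24 subclass, read 9.47, 9.43 and 9.34, then 9.64, 9.75 and 9.66 after irradiation. It rose by 0.27 ± 0.07 (SE), with a limma adjusted p of 0.0309 and no overlap. SEC24C, the partner of SEC24D in that subclass, read 8.16, 8.19 and 8.18 without irradiation and 8.18, 8.21 and 8.10 with it. These values overlapped, and the confidence interval of its difference ran from -0.16 to 0.14.

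SEC23B, encoding a paralogue of the GTPase-activating subunit, read 11.17, 11.10 and 11.07 on the unirradiated arrays and 11.34, 11.49 and 11.32 on the irradiated arrays. SEC23B rose by 0.27 ± 0.07 (SE), or 1.21-fold, with a limma adjusted p of 0.0354. The paralogue SEC23A differed by -0.04 (adjusted p 0.739), with a confidence interval from -0.19 to 0.11. SAR1B, encoding a GTPase that starts coat assembly, read 9.93, 10.14 and 10.15, then 10.21, 10.40 and 10.45. The groups did not overlap, but the gap was small beside their spread, and the difference of 0.28 ± 0.09 (SE) missed the threshold in limma (adjusted p 0.0644). SAR1B was called under 5 of the 14 alternatives, among them the fit without irradiated replicate 1 (adjusted p 0.0432), and its adjusted p was 0.199 without unirradiated replicate 1. SAR1A differed by 0.12. In the outer cage, SEC31A differed by 0.11 (adjusted p 0.286) and SEC13, which also serves the nuclear pore, by -0.00087 (0.995).

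**Figure D2:**
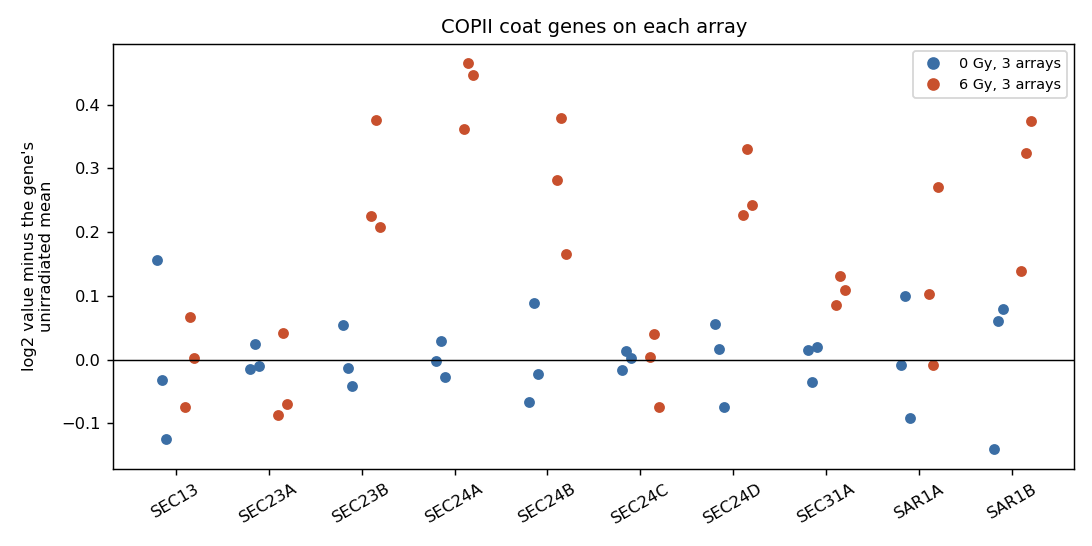
Values of the 10 COPII genes on each array as log2 differences from the gene's own unirradiated mean, with the 3 unirradiated arrays in blue and the 3 irradiated arrays in red. The irradiated values of SEC23B, SEC24A, SEC24B, SEC24D, SEC31A and SAR1B lie above all unirradiated values, and those of SEC13, SEC23A, SEC24C and SAR1A overlap them.

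LMAN1 and MCFD2 together form the receptor that loads coagulation factors and other glycoproteins into COPII vesicles. LMAN1 read 11.28, 11.37 and 11.51 in unirradiated cells and 11.53, 11.55 and 11.44 in irradiated cells. MCFD2 read 9.93, 9.87 and 9.86, then 9.84, 9.81 and 9.99. Both overlapped between groups, with differences of 0.12 (limma adjusted p 0.338) and -0.0023 (0.987).

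The COPI coat is made of 7 kinds of subunit, all measured, and none passed the test. Their differences ran from -0.08 (COPE) to 0.21 (COPZ1), with a median of 0.13, and 5 of the 7 had irradiated values wholly above the unirradiated values, as did 19.0% of all genes. COPE, the epsilon subunit and the only COPI gene with a difference below 0, read 11.00, 11.05 and 10.96 on the unirradiated arrays and 10.93, 10.99 and 10.86 on the irradiated arrays. COPB1, the beta subunit, read 9.29, 9.21 and 9.24, then 9.39, 9.39 and 9.36. Its groups did not overlap, yet the difference of 0.13 did not pass in limma (adjusted p 0.192). Nearest to the threshold were ARCN1, the delta subunit, which differed by 0.20 (limma adjusted p 0.0669), and COPZ1, the zeta subunit, at 0.21 (0.0897). COPG1, the gamma subunit, differed by 0.13, the beta-prime subunit COPB2 by 0.14 and the alpha subunit COPA by 0.08. Of the 14 alternatives, ARCN1 was called under 3 (without the dimmest 33.3% of genes, with an intensity trend of the prior and with array weights) and COPZ1 under 1 (the trend), with adjusted p as low as 0.0108 and 0.022.

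KDEL receptors capture ER residents in the Golgi and return them in COPI vesicles. KDELR3 read 6.72, 7.02 and 6.70 on the unirradiated arrays and 8.22, 8.36 and 8.05 on the irradiated arrays. Every irradiated array was more than 1 log2 unit above every unirradiated array. KDELR3 rose by 1.40 ± 0.11 (SE), or 2.63-fold with a 95% confidence interval from 2.23 to 3.10, and its limma adjusted p was 5.47e-05. It was the increase of rank 5 among all 18417 genes. KDELR1 read 10.81, 10.90 and 10.93 without irradiation and 11.07, 11.04 and 10.89 with it. Those groups overlapped, since irradiated replicate 3 lay within the unirradiated range, and the difference of 0.12 did not pass (adjusted p 0.299, confidence interval from -0.04 to 0.29).

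**Figure D3:**
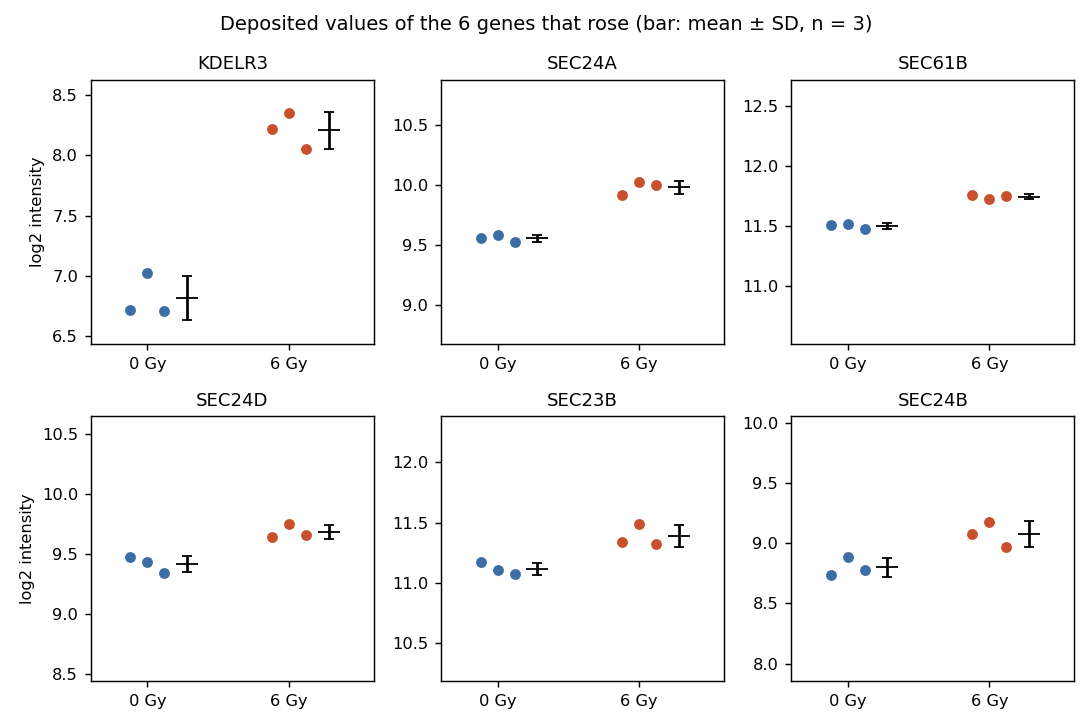
Deposited log2 intensities of the 6 genes that rose, by dose, 1 point per array with the group mean ± SD beside it (n = 3); each panel's vertical axis covers the same span. KDELR3 moved from between 6.70 and 7.02 to between 8.05 and 8.36, and the other 5 genes moved by less than 0.5.

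Several of these proteins come as paralogues, and 7 pairs were compared for unequal change by the log2 difference of the pair on each array. In each pair the gene with the larger difference between doses was put first, so every shift is positive by this order. The difference was larger after irradiation by 1.27 for KDELR3 minus KDELR1, by 0.31 for SEC23B minus SEC23A, by 0.28 for SEC24D minus SEC24C and by 0.15 for SEC24A minus SEC24B. In these 4 pairs the irradiated values did not overlap the unirradiated values, which gave p = 0.1 in an exact two-sided permutation test, the smallest p that 3 arrays against 3 allow, or 0.175 adjusted over the 7 pairs. SEC23B minus SEC23A was 2.38, 2.27 and 2.27 on the unirradiated arrays and 2.62, 2.64 and 2.58 on the irradiated arrays, a narrow spread in both groups. The shift was 0.16 for SAR1B minus SAR1A (exact permutation p = 0.3), 0.05 for SEC11A minus SEC11C (0.9) and 0.02 for SEC61A1 minus SEC61A2 (1.0). For these 3 pairs the groups overlapped.

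**Figure D4:**
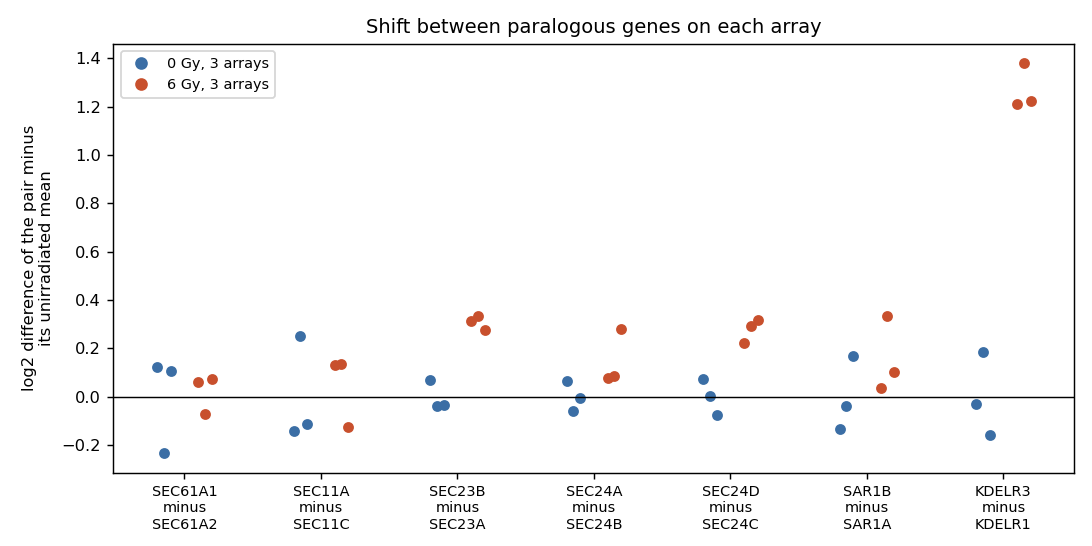
Log2 difference between paralogous genes on each array, set to 0 at the pair's unirradiated mean, with 3 unirradiated (blue) and 3 irradiated (red) arrays. The gene with the larger difference between doses was put first in each pair, so every shift is positive by this order. The irradiated points lie above all unirradiated points for KDELR3 minus KDELR1, SEC23B minus SEC23A, SEC24D minus SEC24C and SEC24A minus SEC24B, and overlap them for the other pairs.

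Many secretory genes are driven by factors of the unfolded protein response, among them XBP1, which binds the element TGACGTGG. RefSeq promoter windows (GRCh38.p14, from 250 bases before to 50 after a start site) were found for 41 of the 46 genes, 56 windows in all, and searched on both strands. TGACGTGG or its reverse complement CCACGTCA stood in 11 windows (19.6%) of 10 genes, against 0.729% of all 35116 windows and 0.792% of the windows of coding genes tested here. Both COPB2 windows overlap and hold the same pair of sites. The ER stress elements ERSE and ERSE-II, searched as fixed consensus strings, were found in 0 of the 56 windows and in 0.0769% and 0.0541% of all windows. A match is a run of letters, not evidence of binding.

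The windows of KDELR3 and SEC24A, the genes called under every setting, are shown for the 250 bases before the start site, 5′ to 3′ along the gene, with the matching bases in capitals. That of KDELR3 is at chr22:38467846-38468095 on the + strand, and its match begins 46 bases before the start site. That of SEC24A is at chr5:134648535-134648784 on the + strand, and its match begins 179 bases before the start site.
KDELR3 promoter: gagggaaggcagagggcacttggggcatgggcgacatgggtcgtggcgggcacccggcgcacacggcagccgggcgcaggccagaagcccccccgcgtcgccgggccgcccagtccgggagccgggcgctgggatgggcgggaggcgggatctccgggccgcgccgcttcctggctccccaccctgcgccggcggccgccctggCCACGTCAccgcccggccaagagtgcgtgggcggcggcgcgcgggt
SEC24A promoter: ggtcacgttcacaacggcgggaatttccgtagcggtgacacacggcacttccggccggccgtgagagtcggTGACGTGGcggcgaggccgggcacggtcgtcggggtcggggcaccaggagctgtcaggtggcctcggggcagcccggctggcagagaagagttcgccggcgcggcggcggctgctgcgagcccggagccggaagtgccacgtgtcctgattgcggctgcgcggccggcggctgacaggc

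The matches in the other 8 genes are shown as stretches of 30 bases, to compare the bases around the element, which is again in capitals.
SRP19 chr5:112861164-112861193 + strand: aagtcttcatgCCACGTCAgagactagaga
SEC62 chr3:169966779-169966808 + strand: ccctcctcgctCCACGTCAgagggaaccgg
SSR3 chr3:156554148-156554177 - strand: tctgataacagCCACGTCAgcaaggaaact
SSR4 chrX:153794528-153794557 + strand: tcagggaggggCCACGTCAgtgctgccaga
SEC23A chr14:39103221-39103250 - strand: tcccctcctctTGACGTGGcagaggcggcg
COPA chr1:160343227-160343256 - strand: gagagggtcgcTGACGTGGaggcgtccgaa
COPB1 chr11:14499841-14499870 - strand: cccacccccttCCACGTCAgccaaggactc
COPB2 chr3:139389825-139389854 - strand: gctcagcggcaCCACGTCAcggcccttagt
COPB2 chr3:139389632-139389661 - strand: tcccggaagttCCACGTCAgtcagtctgac
Read along the gene, COPA, SEC23A and SEC24A carry TGACGTGG and the other 7 genes its reverse complement.

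The 10 measured genes with the element had a median difference of 0.14 (0.13 without KDELR3), with 2 higher and 0 lower. The 30 measured genes with windows but no match had a median of 0.10, with 3 higher and 0 lower. Of the COPII genes with the element, SEC24A rose and SEC23A did not pass. The match of SEC23A begins 4 bases before the start site and runs across it. Of all 152 tested coding genes with the element, 8 were higher and 18 lower, with a median of 0.02. Over all 18417 genes, 6.35% were higher and 8.18% lower, with a median of 0.04. The part of the element in these differences was not tested. XBP1 mRNA read 11.39, 11.38 and 11.36 on the unirradiated arrays and 11.11, 11.12 and 11.20 on the irradiated arrays. It fell by 0.23 ± 0.06 (SE), with a limma adjusted p of 0.0405, and this call ended without any 1 array except irradiated replicate 3 (adjusted p up to 0.117). The probe set does not separate the spliced from the unspliced form.

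The neighbouring steps of the pathway were read from 6 further lists, with 90 genes measured of 96. Of these, 8 rose, 5 fell and 77 did not pass, which is 14.4% called against 14.5% of all genes, and the median difference was 0.04. Among 16 genes of ER exit sites and their regulators, 2 rose and 2 fell. MIA2 and MIA3 encode large ER exit site proteins that help load bulky cargo such as collagen. MIA2 read 6.47, 6.52 and 6.61 in unirradiated cells and 5.86, 5.91 and 5.91 in irradiated cells, with no overlap, and fell by 0.64 ± 0.07 (SE; limma adjusted p 0.000369). With its probe sets averaged, the difference of MIA2 was -0.27 (limma adjusted p 0.0367). MIA3 fell by 0.31 (limma adjusted p 0.0143; up to 0.0609 without unirradiated replicate 2 or irradiated replicate 1). CREB3L1 and CREB3L2 encode membrane-bound transcription factors that are released by proteolysis and induce secretory pathway genes. CREB3L1 rose by 0.49 (limma adjusted p 0.00409) and CREB3L2 by 0.32 (0.0134, and 0.0581 without unirradiated replicate 1). The unirradiated mean of CREB3L1 was 5.61, below the lowest median of any array, 5.64.

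Of 10 ARF and COPI partner genes, 2 rose and 1 fell, with a median of 0.19. ARF4 encodes a small GTPase that recruits COPI. It read 10.63, 10.54 and 10.61 on the unirradiated arrays and 11.09, 11.09 and 11.08 on the irradiated arrays, and rose by 0.49 ± 0.07 (SE; limma adjusted p 0.00126). The irradiated arrays were nearly identical for it. ARFGAP2, which switches ARF off, fell by 0.33 (limma adjusted p 0.0202) and the Golgi protein gene TMEM115 rose by 0.29 (0.0158). Both calls ended without unirradiated replicate 1 and irradiated replicate 1, that of ARFGAP2 also without unirradiated replicate 2 and that of TMEM115 also without unirradiated replicate 3 (adjusted p up to 0.0832 and 0.0613).

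Of 26 tether and SNARE genes, 2 rose and 0 fell. NSF, the ATPase that takes SNARE complexes apart after fusion, rose by 0.49 (limma adjusted p 0.00215), and TRAPPC4, a subunit of the TRAPP tether, rose by 0.39 (0.0068). Of 11 p24 and lectin cargo receptor genes, LMAN2L rose by 0.52 (limma adjusted p 0.00236) and TMED9 fell by 0.37 (0.0092). Of 11 subunits of oligosaccharyltransferase, the enzyme that N-glycosylates chains as they enter the ER, RPN2 fell by 0.37 (limma adjusted p 0.00907) and 10 did not pass. Of 16 genes of the EMC and GET routes, which insert membrane proteins outside the Sec61 path, MMGT1, an EMC subunit, rose by 0.34 (limma adjusted p 0.0114).

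**Figure D5:**
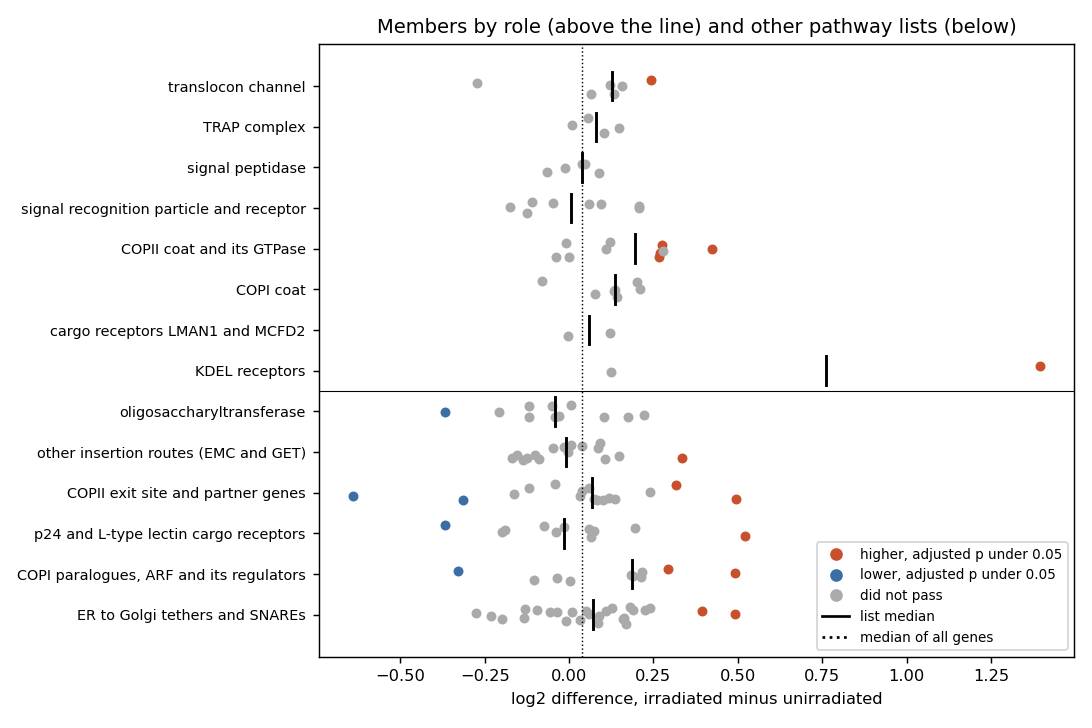
Log2 difference between irradiated and unirradiated cells for each gene, by role group (above the horizontal line) and in the other pathway lists (below it), with black bars at list medians and a dotted line at the median of all genes, 0.04. Calls in the role groups are all in the higher direction, 6 of 44, while the other lists hold 8 higher and 5 lower of 90.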

How the data were processed

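RNA of 6 samples of the line was measured on 1-colour biotin arrays, 3 per dose. The authors deposited a value table of 33297 probe sets, which was read as log2 intensities from its range; its normalization is "not given in the sources used here", as is its software. In the platform annotation 19460 probe sets had 1 gene symbol, 1754 had several and 12083 had none. The brightest probe set of each gene, by its mean on the 6 arrays, was kept, leaving 18417 genes, with no filter on dim genes. No further normalization was applied.

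Doses were compared with limma 3.58.1 in R 4.3.3 (lmFit and eBayes, 2 groups, no covariate), with Benjamini-Hochberg adjustment over all genes and a threshold of 0.05, and tested on simulated data. Shifts between paralogues were tested with an exact two-sided permutation test, whose smallest p is 0.1; 7 of 9 planned pairs could be formed, since KDELR2 was not measured. The number of arrays limits the precision. Promoter windows came from RefSeq (GRCh38.p14). A list of proteins with KDEL tails was not made, as no protein table was used here.

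Array values are given for called members, for the member with the highest and lowest mean of each role group and for KDEL receptors; of other lists, called genes are named. Other array values were chosen after they were seen. The genes and lists were chosen with earlier results of these data known. Alternatives were a replicate block, leaving out each array, quantile normalization, array medians subtracted, leaving out the dimmest 33.3% of genes, array weights, a robust prior that follows intensity, averaging a gene's probe sets, testing every probe set and a threshold of 0.01. The motif TGACGTG was added after seeing the data.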

Additional observations from a re-analysis of the deposited data

How the results depend on the processing

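Of the 44 genes, 6 were higher, and this count was 3 with the replicate number as a block, 12 with an intensity trend and robust prior and 2 at an adjusted p under 0.01; leaving out 1 array gave 2 to 4. The block ended the calls of SEC61B, SEC23B, SEC24B and SEC24D (limma adjusted p 0.071, 0.0683, 0.0575 and 0.063). The count lower was 0, and 1 without the dimmest 33.3% of genes, 2 with the trend and 1 with array weights; leaving out 1 array gave 0 to 1. Over all genes 2676 were called, 1077 at an adjusted p under 0.01 and 1471 (without unirradiated replicate 2) to 2184 (without irradiated replicate 3) with 1 array left out. The median difference of the 44 genes was 0.11 and ran from 0.07049 to 0.122 with 1 array left out. No called gene of the set changed sign under these alternatives. Where a value moved, the cause was not tested. Leaving out an array changes both the number of arrays and which arrays remain.

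The motif TGACGTG, which is TGACGTGG without its last base, stood in 26.8% of the windows of the set and 1.97% of all windows. Every window with TGACGTGG is among them, so the shares of these motifs are not independent. Same-numbered arrays had correlations of -0.04, 0.10 and -0.11 between their deviations from the group means. By this measure 2 of 6 arrays were closest to their own number. These values showed no pairing by replicate number, but with 3 arrays per dose they cannot exclude it.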
